A study of Arabidopsis thaliana with 11 samples.

Results

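AT1G62000, AT1G62060, AT1G62070 and AT1G62080 are 4 small genes of Arabidopsis thaliana that lie within 33.6 kb on chromosome 1. They are 4 of the 28523 genes in the deposited tables, and they were picked by name as neighbours whose reads came almost wholly from the mother in the allele columns of all 11 libraries. That pattern held for AT1G62060, AT1G62070 and AT1G62080. It did not hold for AT1G62000, whose maternal share was 93.3% to 99.5% when the mother was Col and 56.1% to 84.5% when the mother was Ler. The reference annotation gives all 4 products as uncharacterized proteins, with the endomembrane system as the location named for AT1G62000, AT1G62060 and AT1G62070.

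RNA was sequenced from endosperm and embryo of seeds 7 to 9 days after pollination, dissected from reciprocal crosses between the accessions Col and Ler, and each read was assigned to the accession it matched better. Wild-type Col-0 and Landsberg plants gave 3 libraries of pure endosperm (replicates 1 and 2 of Col × Ler, mother first, and replicate 3 of Ler × Col), 2 of full endosperm (replicate 1 of Col × Ler, replicate 2 of Ler × Col) and 3 of embryo (replicates 1 and 2 of Col × Ler, replicate 3 of Ler × Col). Endosperm also came, in 1 library each, from a Columbia-gl mother carrying dme-2 crossed to wild-type Ler, from a Ler mother carrying fie-1 crossed to wild-type Col-0, and from a wild-type Ler mother crossed to a father carrying met1-6. The dme-2 and fie-1 plants were heterozygous, and the met1-6 plants were homozygous in Col-gl, whereas the sample label gives that father as Columbia-0. All 3 mutant samples are labelled pure endosperm. The labels do not say how the pure and full preparations differ. They also do not tie replicates to separate plants. The titles of 2 libraries, replicate 1 of pure endosperm and replicate 1 of embryo, contain "LCM", with the same protocol text as the others, and the other libraries are called dissected. Cross direction and an LCM title together define the set of a library, and no wild-type tissue has more than 1 library per set. In fits with additive terms for tissue and set, the spread behind each p-value is what those terms leave over. It is not a spread between like libraries, which are lacking.

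The endosperm feeds the embryo and holds 2 maternal genome copies for each paternal copy, while the embryo holds 1 of each. The seed coat around both is tissue of the mother alone. DME is a DNA glycosylase that removes cytosine methylation in the central cell before fertilization, FIE is a subunit of the Polycomb complex PRC2, and MET1 is the DNA methyltransferase that maintains methylation at CG sites. Each of the 3 acts in genomic imprinting, the expression of a gene by parent of origin. In whole-tissue RNA, maternal transcripts of the endosperm and transcripts of adhering seed coat cannot be told apart by allele, nor can fewer cells of a type be told apart from less RNA per cell.

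AT1G62000, AT1G62060 and AT1G62080 are close copies of each other, and AT1G62070 was less alike. Proteins of AT1G62000, AT1G62060 and AT1G62080 were 81.8% to 90.5% identical in pairs, and their coding sequences were 91.7% to 95.5% identical. A blastp search of the reference proteins with an E-value of at most 1e-05 matched each of the 3 to AT1G62220 and AT1G62225, and returned no match for AT1G62070. In global alignments, counted over aligned residues without gaps, AT1G62070 was 32.4% to 45.1% identical to the other 3 proteins, 45.6% to AT1G62220 and 49.04% to AT1G62225, while AT1G62225 was 43.3% to 46.7% identical to the other 3 genes. The coding sequence of AT1G62070 was 63.7% to 64.3% identical to theirs over aligned bases. Whether AT1G62070 belongs to the same family was not tested. The first 90 coding bases (RefSeq, TAIR10.1) are printed to show the likeness of the copies, with capitals at the 7 positions where AT1G62000, AT1G62060 and AT1G62080 differ. AT1G62000 matched AT1G62060 at 85 of the 90 bases and AT1G62080 did so at 84. The AT1G62070 sequence is printed without alignment gaps, so its letters do not line up with the others base by base.

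AT1G62000, chr1:22913491-22913580, + strand: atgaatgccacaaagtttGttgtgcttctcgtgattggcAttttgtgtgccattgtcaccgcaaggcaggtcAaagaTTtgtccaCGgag
AT1G62060, chr1:22942158-22942247, - strand: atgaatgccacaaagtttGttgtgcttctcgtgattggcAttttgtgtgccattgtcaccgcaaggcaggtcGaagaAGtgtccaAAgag
AT1G62080, chr1:22946814-22946903, - strand: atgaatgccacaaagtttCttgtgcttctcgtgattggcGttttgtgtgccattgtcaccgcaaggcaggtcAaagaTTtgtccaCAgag
AT1G62070, chr1:22943632-22943721, + strand: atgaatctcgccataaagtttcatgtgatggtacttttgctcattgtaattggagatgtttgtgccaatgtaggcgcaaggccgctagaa

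This likeness bears on the counts, because reads from the alike stretches may be assigned to any of the copies. Of all 30-base words in the transcripts, 37.7% of AT1G62000, 44.2% of AT1G62060 and 41.5% of AT1G62080 also occurred in another of these copies or in AT1G62220. No 30-base word of AT1G62070 occurred in another gene. Over 27435 genes, 34.7% shared at least 1 such word with another gene and 4.39% shared at least 20% of their words. Not given in the sources used here are the read length and the handling of reads with several matches, so values of AT1G62000, AT1G62060 and AT1G62080 are uncertain to an extent that was not tested, and those of AT1G62070 are the ones without this limit.

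Upstream, AT1G62000 and AT1G62080 shared a run of 151 identical bases, printed in capitals in the 250 bases before each start (RefSeq, TAIR10.1) because it is the longest stretch the 4 windows have in common in any pair. Its last base is the 14th before the start of AT1G62000. In AT1G62080 it begins at the edge of the window, 250 bases before the start, and was not followed further. The longest run that AT1G62060 shared with either of them was 20 bases, and the longest that AT1G62070 shared with any of the other 3 was 9 bases.

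AT1G62000, chr1:22913109-22913358, + strand: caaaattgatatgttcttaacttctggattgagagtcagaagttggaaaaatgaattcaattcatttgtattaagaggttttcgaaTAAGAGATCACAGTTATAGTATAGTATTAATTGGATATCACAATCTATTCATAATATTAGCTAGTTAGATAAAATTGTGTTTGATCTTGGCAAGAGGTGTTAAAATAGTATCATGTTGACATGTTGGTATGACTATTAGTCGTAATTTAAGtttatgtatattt
AT1G62080, chr1:22946950-22947199, - strand: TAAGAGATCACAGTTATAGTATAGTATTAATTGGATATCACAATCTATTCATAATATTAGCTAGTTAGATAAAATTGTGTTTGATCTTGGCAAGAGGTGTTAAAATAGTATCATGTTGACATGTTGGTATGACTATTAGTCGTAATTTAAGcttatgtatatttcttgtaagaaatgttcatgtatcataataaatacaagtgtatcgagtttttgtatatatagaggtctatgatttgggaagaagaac

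Motifs were counted on both strands of the 250-base windows. The W-box core TTGAC, bound by WRKY factors, occurred in 3 of the 4 windows, against 44.9% of 27443 promoters, and was missing from that of AT1G62070. In AT1G62000 and AT1G62080 it lies at the same place of their shared upstream run, so these 2 are not separate occurrences. The E-box CANNTG, a site of bHLH factors, occurred in 2, AT1G62000 and AT1G62080, against 55.3% of promoters. TAAATG, a core of the L1 box, occurred only in the AT1G62070 window among the 4 (26.1% of promoters), and TATAAA only in the AT1G62060 window (47.3%). The G-box CACGTG, a form of the E-box, the MYB sites ACCAAAC and ACCTAAC and the RY core CATGCA occurred in none of the 4 windows, against 6.5%, 8.3%, 2.5% and 8.4% of promoters. These are letter matches in short windows.

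Each gene has a single annotated exon. In TAIR10.1, AT1G62000 spans chr1:22913359-22914146 on the plus strand, with a transcript of 788 bases and a protein of 148 residues. AT1G62060 spans chr1:22941569-22942300 on the minus strand (732 bases, 150 residues). AT1G62070 spans chr1:22943594-22944289 on the plus strand (696 bases, 121 residues). AT1G62080 spans chr1:22946242-22946949 on the minus strand (708 bases, 150 residues). AT1G62060 and AT1G62070 start from neighbouring ends with 1293 bases between them, AT1G62070 and AT1G62080 end towards each other 1952 bases apart, and AT1G62000 lies 27.4 kb from AT1G62060. The counted files hold no coordinates, and the build behind the counts is not given in the sources used here, so these positions were looked up by gene identifier.

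**Figure D1:**
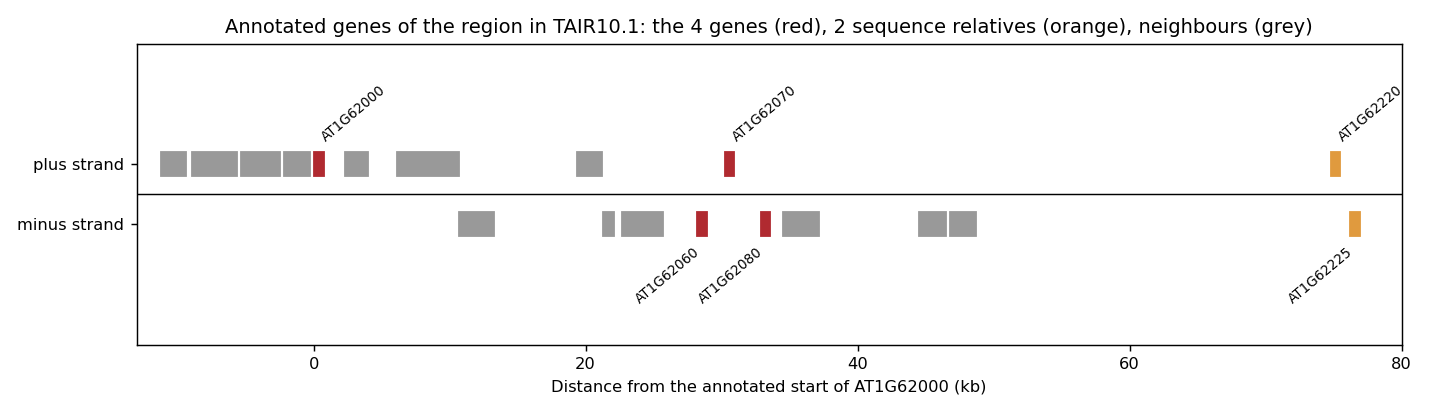
Positions of annotated genes, as distance in kb from the annotated start of AT1G62000 (x axis), on the plus and minus strands (y axis), each box spanning a gene. Red boxes are the 4 genes, which cover 33.6 kb, orange boxes are the relatives AT1G62220 and AT1G62225, and grey boxes are neighbours.

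Allele-assigned reads per library ranged from 358142 to 4828301, with the lowest total in LCM-titled pure endosperm replicate 1. Levels are given as CPM, a gene's reads scaled to the same allele-assigned total in every library. Between genes even the level per kb of transcript depends on how many Col-Ler differences a transcript holds, so levels are compared between libraries and not between genes. A list of 15 embryo genes summed to 1086 to 2279 CPM in embryo and 166 to 414 CPM in wild-type endosperm. A list of 12 endosperm genes summed to 17190 to 207600 CPM in wild-type endosperm and 74.0 to 9079 CPM in embryo, with the highest embryo value in replicate 3. In the dme and fie libraries the endosperm list summed to 1017 and 793 CPM, below every wild-type endosperm library, and in the met1 library to 187700 CPM. The dme and fie sums go against their tissue label, but gene by gene the list was mixed. Against the dissected pure library of the cross, 3 of 7 measured genes were at least 4-fold higher in dme and 3 at least 4-fold lower. In fie 5 of 9 were at least 4-fold higher and 3 at least 4-fold lower. The median ratio of the endosperm list was 0.503 in dme and 4.53 in fie, so the low sums do not describe most genes of the list. A list of 24 seed coat genes, 18 of them with reads, summed to 5213 and 2681 CPM in dissected pure endosperm, to 14340 and 10080 CPM in full endosperm, to 1181 to 1437 CPM in embryo, and to 57870 CPM in dme, 25700 CPM in fie and 13580 CPM in met1.

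The maternal shares that chose the genes are given here as a description. For AT1G62060, 2565 maternal and 2 paternal reads in pure endosperm replicate 2 gave a share of 99.9% (exact Clopper-Pearson 95% interval, 99.7% to 100%), and 1908 and 4 reads in replicate 3 gave 99.8% (99.5% to 99.9%). Its share was 99.7% and 99.5% in full endosperm, 99.4% and 100% in embryo replicates 2 and 3, 99.9% in dme, 99.8% in fie and 99.6% in met1. The share was thus near full with either accession as the mother and in all 3 mutants.

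AT1G62070 gave 4611 maternal and 8 paternal reads in pure endosperm replicate 2 and 6188 and 1 in replicate 3. In embryo its reads were 526 maternal to 1 paternal in replicate 2 and 505 to 1 in replicate 3, a share of 99.8% in both. In the met1 library all 197 reads were maternal (interval 98.1% to 100%), and in the fie library 17921 were maternal and 2 paternal. AT1G62070 also had all 14 of its reads in LCM-titled pure endosperm from the mother, where the interval reaches down to 76.8%.

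AT1G62080 had shares of 99.8% in both dissected pure endosperm libraries, and of 99.4% and 99.04% in full endosperm. Embryo replicates 2 and 3 had shares of 97.9% and 100%. The share was 98.9% in dme, 99.7% in fie and 99.6% in met1. With 50 paternal reads of 4588, the dme library held the most paternal reads of this gene. For AT1G62060, AT1G62070 and AT1G62080 the paternal level of each gene lay between 0 and 10.7 CPM in every library.

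AT1G62000 behaved differently in the 2 cross directions. In Col × Ler it had 167 maternal and 3 paternal reads in pure endosperm replicate 2 (98.2%, interval 94.9% to 99.6%), 2383 and 13 in full endosperm replicate 1 (99.5%), 28 and 2 in embryo replicate 2 (93.3%, 77.9% to 99.2%) and 2939 and 17 in dme (99.4%). In Ler × Col it had 1059 maternal and 312 paternal reads in pure endosperm replicate 3 (77.2%, 74.9% to 79.4%) and 3655 and 1993 in full endosperm replicate 2 (64.7%, 63.5% to 66.0%). The share in embryo replicate 3 was 84.5% (75.0% to 91.5%), from 71 and 13 reads.

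In the Ler × Col mutants the share of AT1G62000 was 62.3% in fie, from 11845 maternal and 7176 paternal reads, and 56.1% in met1 (53.2% to 58.9%), from 652 and 511. The paternal reads of the Ler × Col libraries are those scored as Col, at 110 CPM in pure, 413 CPM in full, 16.1 CPM in embryo, 1905 CPM in fie and 483 CPM in met1. In the Col × Ler libraries with reads, the paternal reads, scored as Ler, stood at 0.817 to 3.64 CPM. All 5 Ler × Col shares were thus below all 4 Col × Ler shares, and in full endosperm, fie and met1 the interval lay below the 66.7% of the endosperm's genome dose. Over all genes the maternal share of reads was 71.5% in full endosperm replicate 2, 77.3% in fie, 73.6% in met1 and 88.9% in dme. Whether reads of a copy that differs between the accessions enter the Col score of AT1G62000 was not tested.

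**Figure D2:**
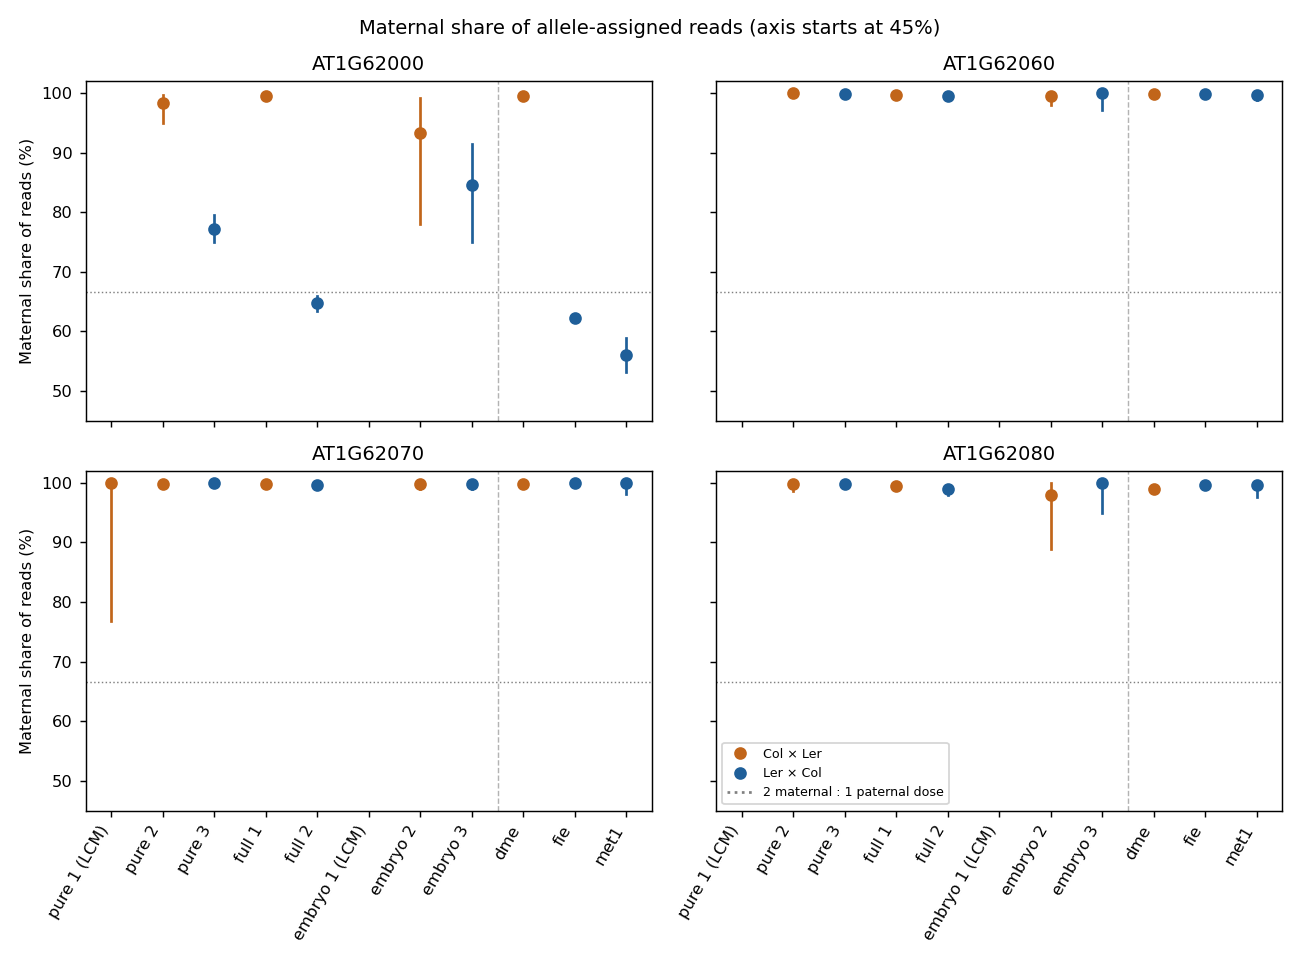
Maternal share of allele-assigned reads (y axis, percent, starting at 45%) of each gene in libraries with at least 10 of its reads (x axis), with exact 95% intervals as bars and the cross direction as colour. AT1G62060, AT1G62070 and AT1G62080 lie at or above 97.9% in every library shown, while AT1G62000 lies at 56.1% to 84.5% in Ler × Col.

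As a background, 203 of 10221 genes with at least 10 reads in at least 3 libraries (1.99%) were at least 95% maternal in every library where they had 10 reads, and 3 of the 4 genes were among them, the exception being AT1G62000. Counted within each direction, the level was met by 2.3% of genes in the Col × Ler libraries and 2.4% in the Ler × Col libraries, again with 3 of the 4 genes among them. In dissected pure endosperm 139 of 7158 genes (1.94%) met this level in both libraries, in full endosperm 328 of 9174 (3.58%) and in dissected embryo 9 of 5432 (0.166%), in each case with the same 3 genes among them. Nothing is read from these counts, since the share was the reason for the choice. The seed coat list had a summed maternal share of 96.8% and 94.4% in dissected pure endosperm, 98.9% and 97.8% in full endosperm, while in dissected embryo it was 65.0% and 68.7%.

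The neighbours of the region set the local background. Of 14 other genes with identifiers from AT1G61960 to AT1G62120, 6 had at least 10 reads in each dissected pure endosperm library, with maternal shares of 57.7% to 85.7% in replicate 2 and 40.7% to 61.5% in replicate 3. AT1G62085, which follows AT1G62080, had 11 maternal and 7 paternal reads in replicate 2 and 7 of each in replicate 3. ATG8C (AT1G62040), a ubiquitin-like protein of autophagy, was the neighbour with the most reads, with shares of 81.7% and 59.7%. The relative AT1G62225 had reads from the mother only: 57 in dme, 136 in fie, 18 and 24 in full endosperm, 1 in pure endosperm replicate 2, 1 in met1 and none in the other libraries. AT1G62220, also a relative, is listed at 0 in all 11 libraries, which may include a lack of usable Col-Ler differences.

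The total level of the genes, with both alleles summed, was not used to choose them and was tested between tissues. All 4 were higher in pure endosperm than in embryo. AT1G62060 stood at 2.79, 951 and 673 CPM in pure endosperm replicates 1 to 3 and at 0, 144 and 155 CPM in embryo. Each dissected pure library lay far above its embryo partner of the same cross, and the LCM-titled libraries lay near 0 in both tissues, so that the groups overlapped through them. The difference was 2.90 ± 0.47 on the log2 scale (SE, adjusted p = 0.00102, edgeR's quasi-likelihood test with Benjamini-Hochberg adjustment over 9913 genes).

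AT1G62070 stood at 39.1, 1711 and 2179 CPM in pure endosperm and 1.65, 215 and 626 CPM in embryo. Again each pure library was above the embryo library of its set, although LCM-titled pure endosperm was below both dissected embryo libraries. The difference was 2.91 ± 0.71 (adjusted p = 0.0113, edgeR's quasi-likelihood test). AT1G62080 stood at 0, 156 and 306 CPM in pure endosperm and 0, 19.6 and 89.1 CPM in embryo. Its difference was 2.69 ± 0.79 (adjusted p = 0.0294, same edgeR test).

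AT1G62000 stood at 0, 63.0 and 483 CPM in pure endosperm and at 0, 12.3 and 104 CPM in embryo. Here the Ler × Col embryo library lay above the Col × Ler pure library, and within each cross pure endosperm was higher. The difference was 2.74 ± 0.57 (adjusted p = 0.00541, same edgeR test). All 4 genes passed the low-count filter and were called higher, against a background of 14.7% of genes tested called higher and 12.7% called lower.

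These calls depended on the set of libraries as a term of the fit and on single libraries. Without that term none of the 4 was called (adjusted p of 0.204 to 0.248, edgeR). The call was lost for AT1G62000 without pure endosperm replicate 3 (adjusted p = 0.0734) or embryo replicate 2 (0.0834), and for AT1G62070 without pure replicate 1 (0.0693), pure replicate 3 (0.064), embryo replicate 1 (0.0759), embryo replicate 2 (0.0844) or both LCM-titled libraries (0.0677). For AT1G62080 it was lost without pure replicates 1, 2 or 3 (0.0722, 0.0787 and 0.379), embryo replicates 1 or 2 (0.0788 and 0.242), both LCM-titled libraries (0.0704), or with all 11 libraries in 1 fit (0.117). AT1G62060 kept its call in each fit that left out 1 library. With library totals in place of TMM factors the median of all genes moved by -0.43 on the log2 scale, the differences of the 4 genes were 2.20 to 2.46, and the split of calls changed from 1458 higher and 1260 lower to 1063 and 2207.

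Of the seed coat genes that passed the test most were also higher in pure endosperm. Of the 24 on the list 16 were tested, 9 were higher in pure endosperm and 1, TT5, was lower, with a median log2 difference of 3.32 against -0.0335 over all genes. TT10, the laccase that oxidizes seed coat flavonoids, differed by 4.00 ± 0.64 (adjusted p = 0.000933), and MUM2, the beta-galactosidase needed for mucilage release, by 2.86 ± 0.46 (adjusted p = 0.00103, edgeR for both). GL2, a homeodomain factor of mucilage-secreting cells, differed by 0.57 ± 0.52 (adjusted p = 0.45), and SBT1.7 (ARA12), a subtilase of the seed coat mucilage, by 0.49 ± 0.37 (adjusted p = 0.35). Of the endosperm list 5 of 5 tested genes were higher, and of the embryo list 5 of 7 were lower. The part of seed coat cells in the difference of the 4 genes was not tested.

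**Figure D3:**
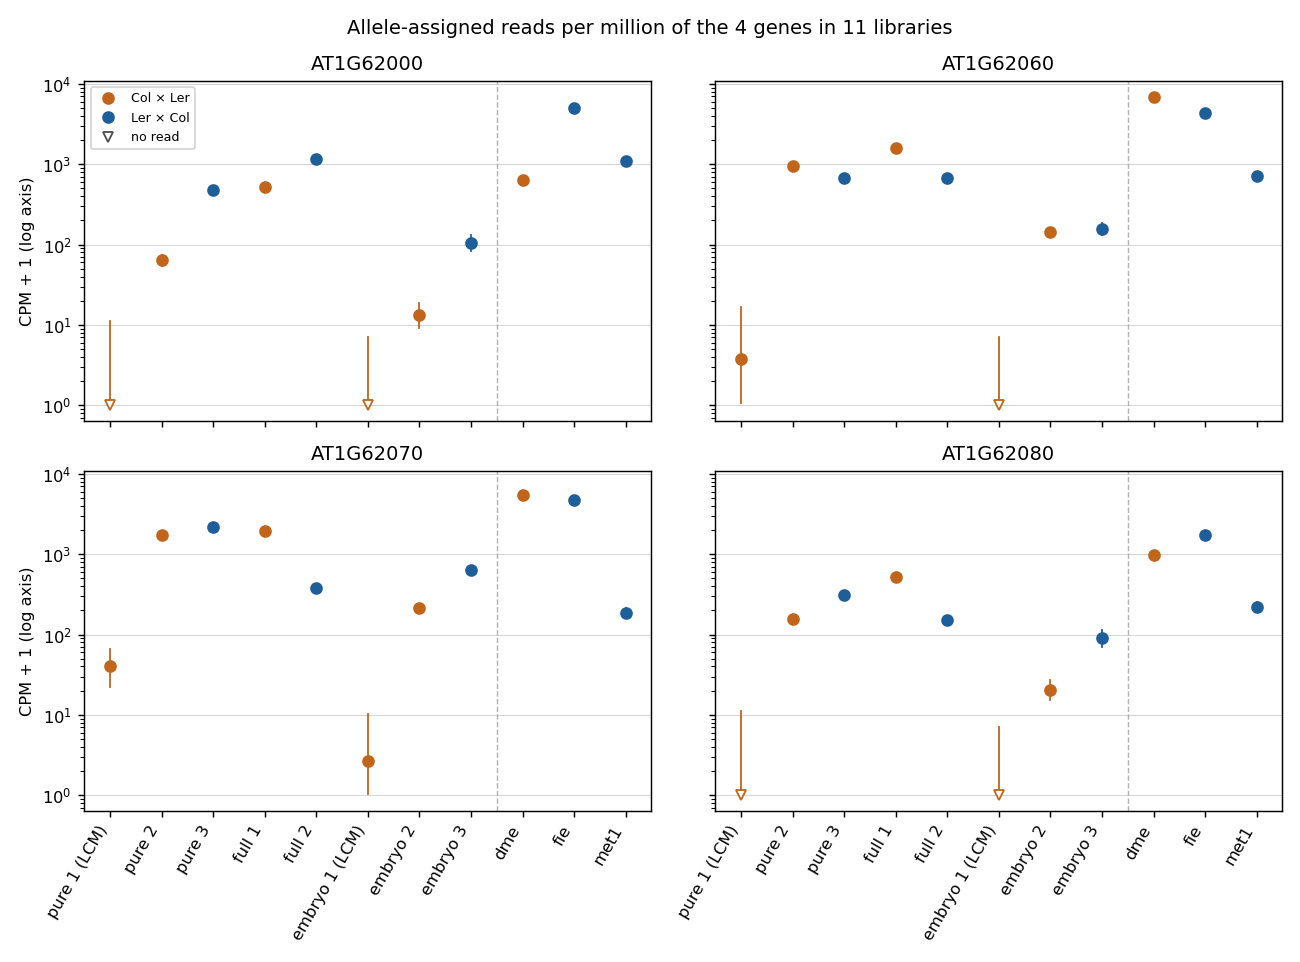
Level of each gene (CPM + 1, log axis) in the 11 libraries (x axis), with exact 95% Poisson intervals for counting error as bars, cross direction as colour and open triangles for libraries without a read. The LCM-titled libraries hold at most 39.1 CPM of any of the genes, and the dissected pure endosperm libraries lie above the embryo library of their cross in all 4.

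The LCM-titled libraries held almost no reads of the genes. Together the 4 genes had 15 reads in LCM-titled pure endosperm, 14 of them from AT1G62070, and 1 read in LCM-titled embryo, against 7777 and 957 reads in the dissected libraries of the same cross. In CPM the sum was 41.9 against 2880 in pure endosperm and 1.65 against 391 in embryo. All 4 genes were called lower in the LCM-titled set, against a background of 3.17% of genes called lower and 0.585% called higher (adjusted p of 0.000298 to 0.0226, edgeR's quasi-likelihood test).

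Where a library had no read, the size is a lower bound against a floor of 3 reads in that library. AT1G62000 was at least 7.52-fold lower in LCM-titled than in dissected pure endosperm and at least 2.48-fold lower in embryo. AT1G62080 was at least 18.6-fold lower in pure endosperm and at least 3.97-fold lower in embryo, and AT1G62060 at least 29.1-fold lower in embryo. With 1 read in LCM-titled pure endosperm, the ratio for AT1G62060 was 340 (counting interval 61.1 to 13500). AT1G62070 had ratios of 43.8 in pure endosperm (26.1 to 80.1) and 131 in embryo (23.4 to 5180).

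The set is 1 library per tissue, and with the set term alone, without tissue, none of the 4 was called (adjusted p of 0.26 to 0.512, edgeR). Without LCM-titled pure endosperm the call was lost for AT1G62000, AT1G62070 and AT1G62080 (adjusted p of 0.138, 0.112 and 0.277), and without LCM-titled embryo for AT1G62070 and AT1G62080 (0.0683 and 0.105). AT1G62080 also lost it without pure replicate 2 (0.0872) or 3 (0.0513) and with all 11 libraries (0.0901). With library totals the median of all genes moved by 0.51, the split of all calls turned from 58 higher and 314 lower to 271 and 209, and all 4 genes were still called lower. Of 16 seed coat genes tested 5 were called lower in the LCM-titled set (TT10, MUM2, GL2, TT8 and KNAT7) and none higher, with a median of -2.28 against -0.104 over all genes. The seed coat list summed to 1354 CPM in LCM-titled and 5213 CPM in dissected pure endosperm of Col × Ler. That step was smaller than that of the 4 genes, whose sum per seed coat CPM was 0.0309 and 0.553. TT10 alone held 2901 of the 5213 CPM, so the list sum is weighted to it. In the fit KNAT7 had a log2 value of -8.90, and the 4 genes had -6.77 to -10.85. AT1G62000 and AT1G62080 had no read in either LCM-titled library, so their fitted values are not measured sizes. AT1G62060 had 1 read in them. The likeness of KNAT7 to the 4 genes in size was therefore not established. The values of TT10, MUM2, GL2 and TT8 were -2.91 to -3.92. Which property of these 2 libraries goes with the low level was not tested.

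Between full and pure endosperm the 4 genes did not move together. AT1G62000 stood at 525 and 1170 CPM in full endosperm, above all 3 pure libraries at 0, 63.0 and 483 CPM, and was called higher by 2.04 ± 0.56 (adjusted p = 0.0455, edgeR's quasi-likelihood test), where 5.69% of all genes were called higher and 3.97% lower. That call was lost without pure endosperm replicate 2 (adjusted p = 0.325) or 3 (0.0904), without full endosperm replicate 1 (0.405), without embryo replicate 2 (0.0903) and without the set term (0.53). The value also shrank to 0.88 without full endosperm replicate 1.

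AT1G62060 stood at 1600 and 673 CPM in full endosperm and differed from pure endosperm by 0.19 ± 0.45 (adjusted p = 0.828). AT1G62080 stood at 515 and 152 CPM and differed by 0.55 ± 0.79 (adjusted p = 0.699). AT1G62070 stood at 1931 and 379 CPM, and its difference was -1.06 ± 0.80 (adjusted p = 0.414, edgeR for all 3). In the dissected Col × Ler libraries AT1G62070 was higher in full than in pure endosperm (1931 against 1711 CPM) and in Ler × Col it was lower (379 against 2179 CPM). AT1G62080 had the same pattern, at 515 against 156 CPM in Col × Ler and 152 against 306 CPM in Ler × Col. AT1G62060 was higher in full endosperm of Col × Ler (1600 against 951 CPM) and nearly level in Ler × Col (672.7 against 673.1 CPM). Without full endosperm replicate 1 the difference of AT1G62070 was -3.34 and was called (adjusted p = 0.000735). Of 16 seed coat genes 3 were higher in full endosperm (BAN, TT8 and KNAT7) and none lower, with a median of 1.35 against 0.0946 over all genes, and their part was not tested. With library totals the median of all genes moved by 0.22 and the genome-wide split moved from 564 higher and 394 lower to 813 and 264.

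Between cross directions, AT1G62000 was the only one of the 4 with an unadjusted p under 0.05. It was higher in Ler × Col in each matched pair: 483 against 63.0 CPM in pure endosperm, 1170 against 525 CPM in full endosperm and 104 against 12.3 CPM in embryo. The difference was 2.37 ± 0.47 (unadjusted p = 0.000435, adjusted p = 0.213, edgeR's quasi-likelihood test), which missed the threshold, as did nearly all genes: 0.0202% were called higher and 0.0504% lower. It passed with DESeq2 (adjusted p = 0.0058), with no low-count filter (6.08e-06), with all 11 libraries (0.0253) and without full endosperm replicate 1 (1.61e-05) or replicate 2 (0.00174), and over all alternatives the adjusted p ran from 6.08e-06 to 1.

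The maternal level alone of AT1G62000 was also higher in the Ler × Col libraries, at 373 against 61.9 CPM in pure endosperm, 757 against 522 CPM in full endosperm and 87.9 against 11.4 CPM in embryo, so that the reads scored as paternal were not the whole of the step. AT1G62060 differed by -0.54 ± 0.37, AT1G62070 by -0.02 ± 0.73 and AT1G62080 by 0.50 ± 0.69 (adjusted p = 1 for each, edgeR). For AT1G62070 and AT1G62080 the sign turned under other settings. These directions compare the summed reads of 2 accessions, so that an accession effect and a parent effect on the total cannot be told apart in them.

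In the dme library all 4 genes lay above the dissected Col × Ler pure endosperm library. AT1G62060 stood at 6897 CPM against 951, a 7.25-fold ratio. AT1G62000 stood at 632 against 63.0 CPM (10.0-fold), AT1G62080 at 981 against 156 CPM (6.29-fold) and AT1G62070 at 5532 against 1711 CPM (3.23-fold), after 0.5 reads were added to each count. Together they took 1.40% of all allele-assigned reads of this library, against 0.288% in wild type. With 1 library on each side there is no replicate check and no test, and called means at least 4-fold.

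By that measure 3 of the 4 genes were higher in dme, where 28.7% of 11427 genes measured were at least 4-fold higher and 8.22% lower. The median ratio of the 4 genes was 6.77 and that of all genes was 1.99. With TMM-scaled totals the medians were 4.31 and 1.27, and AT1G62000, AT1G62060 and AT1G62080 were 6.37-fold, 4.62-fold and 4.00-fold higher. The genome-wide split moved from 3274 higher and 939 lower to 2166 and 1372. Against the full endosperm library of the cross the ratios were 1.20 for AT1G62000, 4.31 for AT1G62060, 2.86 for AT1G62070 and 1.91 for AT1G62080. Among 17 measured seed coat genes 15 were at least 4-fold higher, with a median of 8.95, and their part in these ratios was not tested.

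In the fie library, compared with the dissected Ler × Col pure library, the order of the genes was the same. AT1G62000 stood at 5050 against 483 CPM (10.5-fold), AT1G62060 at 4298 against 673 CPM (6.38-fold), AT1G62080 at 1723 against 306 CPM (5.64-fold) and AT1G62070 at 4759 against 2179 CPM (2.18-fold). Thus 3 of 4 were at least 4-fold higher, where 32.7% of 10877 genes were higher and 9.9% lower, and where the median ratio was 6.01 for the 4 genes and 2.16 for all genes.

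On TMM-scaled totals only AT1G62000 of the 4 stayed past 4-fold, at 6.34-fold, with AT1G62060 at 3.87-fold, AT1G62080 at 3.42-fold and AT1G62070 at 1.32-fold, and the genome-wide split moved from 3562 higher and 1077 lower to 2391 and 1568. Against the full endosperm library of the cross all 4 were at least 4-fold higher, from 4.32-fold for AT1G62000 to 12.5-fold for AT1G62070. Of the seed coat list 14 of 17 were at least 4-fold higher than in the pure library, with a median of 7.9, and their part was not tested. The 4 genes summed to 0.243 CPM per seed coat CPM in dme and 0.616 in fie, against 0.553 and 1.36 in the wild-type pure libraries of the same crosses. TT10 alone held 39710 of the 57870 CPM of the list in dme and 19360 of 25700 in fie, so these ratios are weighted to it. Against the pure libraries TT10 was 13.7-fold and 13.0-fold higher in dme and fie. MUM2 was 3.08-fold and 4.83-fold higher, below the medians of 6.77 and 6.01 of the 4 genes.

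The met1 library departed from this. It was compared with the same Ler × Col pure library as fie, so the comparisons share that control. AT1G62070 stood at 186 against 2179 CPM and was 11.7-fold lower. AT1G62060 stood at 720 against 673 CPM (1.07-fold), AT1G62080 at 220 against 306 CPM (0.719-fold) and AT1G62000 at 1100 against 483 CPM (2.28-fold). Of the 4 genes 1 was at least 4-fold lower and none at least 4-fold higher, where 5.7% of 8108 genes were lower and 9.56% higher.

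Seed coat genes went the other way in met1: 11 of 17 were at least 4-fold higher, none was 4-fold lower, and their median ratio was 6.47, against 0.895 for the 4 genes and 1.17 for all genes. With TMM-scaled totals AT1G62070 was 16.2-fold lower, AT1G62060 was at 0.771-fold, and the genome-wide split moved from 775 higher and 462 lower to 530 and 704. Against the Ler × Col full endosperm library AT1G62070 was only 2.03-fold lower, and the other 3 genes lay between 0.941-fold and 1.45-fold. Seed coat genes ran from 0.459-fold (TT5) to 3.71-fold (TT16) against that library, apart from AT3G50990 at 48.8-fold. The contrast between the 4 genes and the seed coat list in met1 thus depended on the pure control library. The 4 genes summed to 0.164 CPM per seed coat CPM in met1, close to the 0.236 of Ler × Col full endosperm and below the 1.36 of Ler × Col pure endosperm. TT10 held 9629 of the 13580 CPM of the list in met1, so this ratio too is weighted to it.

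**Figure D4:**
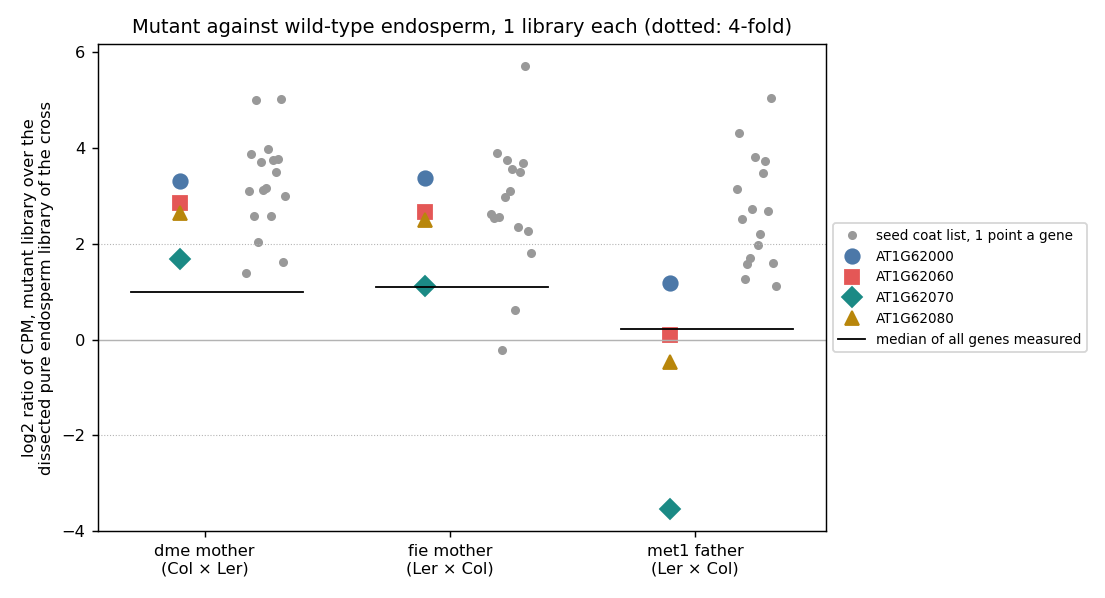
Log2 ratio of CPM of each mutant library to the dissected pure endosperm library of its cross (y axis), for the 4 genes (coloured symbols), the seed coat genes with wild-type reads (grey points) and the median of all genes measured (black line). In dme and fie the 4 genes lie at 1.13 to 3.39, and in met1 AT1G62070 lies at -3.54, below every seed coat gene.

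The make-up of the cluster's reads therefore differed from library to library. AT1G62070 gave 59.4% and 59.9% of the reads of the 4 genes in dissected pure endosperm and 55.1% and 64.3% in dissected embryo. Its part was 42.3% in full endosperm replicate 1, 39.4% in dme, 30.1% in fie, 16.0% in full endosperm replicate 2 and 8.37% in met1. Per read of AT1G62060, its neighbour across 1293 bases, there were 1.80 and 3.24 reads of AT1G62070 in dissected pure endosperm, 1.497 and 4.05 in embryo, 1.21 and 0.563 in full endosperm, 0.802 in dme, 1.11 in fie and 0.259 in met1. In pure endosperm and embryo the ratio was higher in Ler × Col than in Col × Ler, and in full endosperm it was lower.

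AT1G62000 and AT1G62080, which share the upstream run of 151 bases, did not keep a fixed ratio either. Per read of AT1G62080 there were 0.404, 1.02, 0.625 and 0.644 reads of AT1G62000 in the Col × Ler libraries of pure endosperm, full endosperm, embryo and dme. In Ler × Col there were 1.58 in pure endosperm, 7.72 in full endosperm, 1.17 in embryo, 2.93 in fie and 5.01 in met1. Each Ler × Col ratio was above every Col × Ler ratio.

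**Figure D5:**
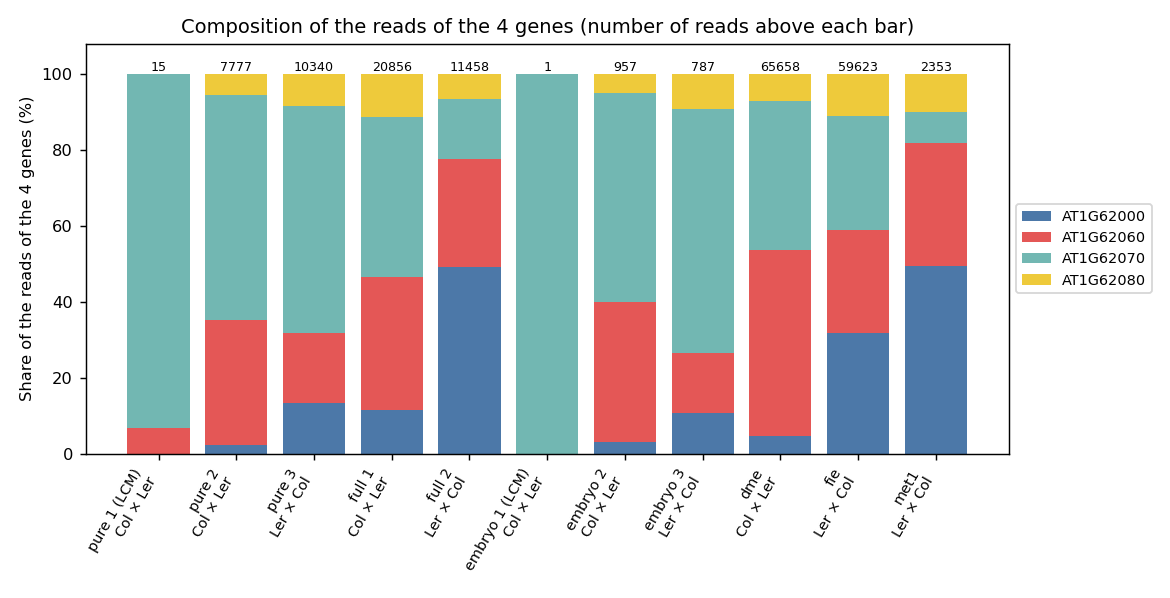
Share of each gene in the summed reads of the 4 genes (y axis, percent) in each library (x axis), with the number of reads above each bar. AT1G62070 holds 55.1% to 64.3% in the dissected pure endosperm and embryo libraries and 8.37% in met1, and AT1G62000 holds 49.3% in full endosperm replicate 2 and 49.4% in met1.

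The order of levels over groups, as mean ± SD in CPM, differed by gene. The pure endosperm and embryo means include the LCM-titled libraries, which lay at 0 to 39.1 CPM. For AT1G62060 it ran from dme (6897, 1 library) and fie (4298, 1 library) to full endosperm (1136 ± 655, n = 2), met1 (720, 1 library), pure endosperm (542 ± 487, n = 3) and embryo (99.5 ± 86.4, n = 3). For AT1G62070 it ran from dme (5532) and fie (4759) to pure endosperm (1310 ± 1125), full endosperm (1155 ± 1098), embryo (281 ± 317) and met1 (186). For AT1G62070 the 3 wild-type groups overlapped. For AT1G62060 pure endosperm overlapped both other groups, while full endosperm (673 to 1600 CPM) lay above embryo (0 to 155 CPM). The met1 value lay within the embryo and pure endosperm ranges for AT1G62070 and within the full and pure endosperm ranges for AT1G62060.

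For AT1G62080 the order was fie (1723), dme (981), full endosperm (333 ± 257), met1 (220), pure endosperm (154 ± 153) and embryo (36.2 ± 46.8). For AT1G62000 it was fie (5050), met1 (1100), full endosperm (848 ± 456), dme (632), pure endosperm (182 ± 262) and embryo (38.7 ± 56.8). For AT1G62080 pure endosperm overlapped both other wild-type groups, while full endosperm (152 to 515 CPM) lay above embryo (0 to 89.1 CPM). For AT1G62000 full endosperm lay above both other groups, and pure endosperm and embryo overlapped. The met1 and dme values of AT1G62000 lay within the range of full endosperm, 525 to 1170 CPM.

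These orders turned on single libraries, an alternative chosen after seeing the data. Without LCM-titled pure endosperm replicate 1 the pure mean of AT1G62060 was 812 CPM and that of AT1G62080 was 231 CPM, both above met1. Without pure replicate 3 the pure mean of AT1G62000 was 31.5 CPM, below embryo. For AT1G62070 the pure mean was 1109 and 875 CPM without replicates 2 and 3, below full endosperm, the full mean was 1931 CPM without replicate 2, above pure endosperm, and the embryo mean was 109 CPM without replicate 3, below met1. Without full replicate 1 the full mean lay below met1 for AT1G62060 (673 CPM), below met1 and pure endosperm for AT1G62080 (152 CPM) and above met1 for AT1G62000 (1170 CPM). Without full replicate 2 the full mean of AT1G62000 lay below dme (525 CPM).

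The genes whose level followed the mean of the 4 most closely, by Pearson's r of log2(CPM + 1) over 11 libraries among 10217 genes, were AT1G23200 (r = 0.971), AT2G27390 (0.963), CESA10 (0.961), MES4 (0.956), RLP26 (0.954), AT1G28590 (0.953), AT5G17980 (0.953), AT3G22910 (0.952), AT2G35290 (0.95) and AT5G47330 (0.949). CESA10 encodes a cellulose synthase catalytic subunit and MES4 belongs to the methylesterase family. Of the 10, 6 had maternal shares of at least 95% in both dissected pure endosperm libraries, and AT5G17980 had 87.5% and 53.3%. KNAT7, a homeodomain factor of secondary walls and mucilage, ranked 14th (r = 0.938) and was the first gene of the seed coat list, followed by MUM2 at rank 36 (0.915). The points share the depth and dissection of each library, and 2 of them are the LCM-titled libraries near 0. By Spearman's rho none of these 10 was among the first 10, and by Pearson's r over the 8 wild-type libraries 3 were.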

How the data were processed

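The deposited values are read counts per gene and accession in each of 11 libraries. Per the readme deposited with the files, the authors aligned reads to cDNA models and counted those with fewer mismatches to Col or to Ler. The aligner was Bowtie, per the submitters' processing notes. Not given in the sources used here are its version, the genome build, read length, strand and the treatment of reads with several matches. The tables hold no reads that match both accessions equally, so totals (358142 to 4828301 a library) count allele-assigned reads only.

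The 4 genes, the gene lists and the comparisons were chosen with earlier results of these data known. Groups came from titles, and replicates were numbered in accession order. Over the 7 pairs of replicates, chi-square divided by its degrees of freedom was 16.4 to 74.1, so no library repeats another. Maternal means the first accession of the title, and 1 identifier ending in a mark was read without it. Summed counts of the 8 wild-type libraries were fitted with edgeR 4.0.16 in R 4.3.3 (TMM, filterByExpr, robust quasi-likelihood test). The terms were tissue and set (Ler × Col, LCM-titled Col × Ler, and the rest of Col × Ler), and a call has a Benjamini-Hochberg adjusted p under 0.05 over 9913 genes. The fitting code was tested on simulated data. Mutants have 1 library each and were compared by ratio over genes with at least 10 reads in either library. Maternal shares use libraries with at least 10 reads and exact 95% intervals, and those intervals, the Poisson intervals and the floor of 3 reads cover counting error only. Sequences and positions come from RefSeq (TAIR10.1), searched with blastp 2.17.0 and Biopython 1.88. Genes named are the 4 genes, neighbours by identifier, blastp relatives, the 10 genes most alike in level and up to 4 seed coat genes with the most reads per comparison. TT5, TT8, TT16, BAN, KNAT7 and AT3G50990 were named beyond that rule after their values were seen. Alternatives were DESeq2 1.42.0, library totals, other low-count filters, single terms, fits without single libraries or with all 11, other read minimums, and other scales and control libraries for the mutants. Group means of level without single libraries were added after seeing the data.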

Additional observations from a re-analysis of the deposited data

How the results depend on the processing

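Of the single-gene results under alternatives, 302 stayed the same, 35 lost a call, 6 gained one, 12 changed sign and 18 moved. For tested differences the same means the same direction and call. Mutant ratios and maternal shares have no call and are part of the 302. For ratios the same means within 1.5 times. For shares it means within the SD of the group or the exact interval, and leaving out 1 library cannot exceed that SD. Of the counts, 70 stayed within 1.5 times and 76 did not. The cause of these moves was not tested, except where fewer genes or libraries entered the fit. Pure endosperm against embryo gave 1458 genes higher and 1260 lower, with 932 higher under the strict filter of 10 reads in every library of a group and 2207 lower with library totals, and without single libraries 776 to 1600 higher and 522 to 1474 lower. Full against pure endosperm gave 564 and 394, with 1008 and 621 without a low-count filter, 123 and 43 with the tested term alone, 595 lower with all 11 libraries, 732 lower without both LCM-titled libraries, and 73 to 719 and 59 to 713 without single libraries. Ler × Col against Col × Ler gave 2 and 5 (433 genes at an unadjusted p under 0.05). It gave 9 and 13 with DESeq2, 44 and 40 without the filter, 1 and 1 with the strict filter, 16 and 18 with all 11 libraries, and 1 to 20 and 0 to 13 without single libraries, the 0 being edgeR's without embryo replicate 2 (261 lower unadjusted). With the term alone edgeR gave 0 and 0 (24 and 35 unadjusted). The LCM-titled set gave 58 and 314, with 165 and 528 by DESeq2, 271 and 209 with library totals, 204 and 805 without the filter, 126 and 661 with all 11 libraries, and 5 to 166 and 143 to 604 without single libraries. With the term alone edgeR gave 0 and 0 (194 and 623 unadjusted).

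Log2 values that changed sign, none of them called either way, were in full against pure endosperm AT1G62060 at -0.53 and AT1G62080 at -1.67 without full replicate 1, AT1G62080 at -0.09 without pure replicate 2 and AT1G62070 at 0.25 without full replicate 2. Between directions AT1G62070 was at 0.062 with DESeq2, 0.023 with the strict filter, and 1.10 and 1.08 without full replicates 1 and 2, and AT1G62080 at -0.30 with the term alone, and -0.01, -0.43 and -0.42 without pure replicate 3, embryo replicate 2 and embryo replicate 3. Without single libraries the log2 values of AT1G62000, AT1G62060, AT1G62070 and AT1G62080 ranged from 2.08 to 3.45, 2.46 to 3.51, 2.29 to 4.49 and 1.71 to 4.41 for pure endosperm against embryo. For full against pure endosperm they ranged from 0.88 to 2.99, -0.53 to 0.78, -3.34 to 0.25 and -1.67 to 1.88. For cross direction they ranged from 1.93 to 3.12, -0.91 to -0.08, -1.06 to 1.10 and -0.43 to 1.65, and for the LCM-titled set from -10.97 to -8.26, -11.71 to -9.02, -8.41 to -6.19 and -12.22 to -9.55. The LCM-titled values of AT1G62000 and AT1G62080, without a read in either such library, are not measured sizes.

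Genes at least 4-fold higher in dme numbered 3274, with 2166 by TMM-scaled totals and 2120 against full endosperm. In fie they numbered 3562, with 1745 against full endosperm. In met1 they numbered 775, with 158 against full endosperm, and 462 were lower, with 704 by TMM-scaled totals and 833 against full endosperm. The maternal share of AT1G62070 in embryo was 99.87% with libraries of at least 1 read. Without single libraries, shares of AT1G62000 ranged from 77.2% to 98.2% in pure endosperm, 64.7% to 99.5% in full endosperm and 84.5% to 93.3% in embryo, those of AT1G62060 from 99.8% to 99.9%, 99.5% to 99.7% and 99.4% to 100%, those of AT1G62070 from 99.9% to 100%, 99.6% to 99.9% and 99.8% to 99.8%, and those of AT1G62080 at 99.8%, from 99.04% to 99.4% and from 97.9% to 100%. Of the 10 genes most alike in level, 0 were among the first 10 by Spearman's rho and 3 over wild-type libraries. With 50 bases after the start added, 2 genes held TATAAA. Under the strict filter AT1G62000, AT1G62060 and AT1G62080 were left out of pure endosperm against embryo, because libraries with under 10 reads removed them. The labels carry no replicate numbers, so no fit had a replicate number as a block. The set term joins libraries of the same set across tissues, and the fits without it are those with the tested term alone. The 32 group means without single libraries each moved by less than the SD of their group. In groups of 2 or 3 libraries any values would do so, so this is no measure of stability. The orders of levels did turn on single libraries.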
